A study of Mus musculus with 4 samples.

Results

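Aminoacyl-tRNA synthetases are the enzymes that join each amino acid to its transfer RNA, and their mRNAs were followed here in CD4+ T cells that lack Bfar. The members were the genes whose symbol is on a fixed list of 36 synthetases, out of 17478 genes listed in at least 1 library. Of these, 20 encode the enzymes of the cytosol, with Farsa and Farsb as the subunits of the phenylalanine enzyme, and 16, with symbols ending in 2, encode the enzymes of mitochondria. The compartments were assigned by symbol, and Gars and Kars are known to make both forms of their enzyme from 1 gene. All 36 genes were listed in all 4 libraries and all 36 passed the filter on low counts.

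RNA was sequenced from CD4+ T cells of C57BL/6 mice aged 6 to 8 weeks. Naive cells were sorted from spleen and lymph nodes as CD44lo CD62Lhi, activated with antibodies to CD3 and CD28, and kept for 3 days under Th9 conditions, which lead helper T cells to secrete interleukin 9. The wild-type group and the BFAR-/- group had 2 libraries each. The deletion is described as conditional to T cells, and the sources used here give neither the promoter that drives the deletion, nor any allele that both genotypes carry, nor the cytokines of the culture. No label says that the 2 libraries of a genotype are from different mice, and the p-values therefore reflect the spread between these libraries alone, which may be technical. The libraries held 19058009 to 19782923 expected counts.

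Both knockout libraries matched their label. Bfar, a RING ubiquitin ligase of the endoplasmic reticulum, had 36.4 and 32.9 CPM in wild type against 8.45 and 7.79 in the knockout, where CPM are counts scaled to library size. Il9, the cytokine that names these cells, had 537 and 505 CPM in wild type against 238 and 270.2 in the knockout. All 5 markers of CD4 T cells were abundant, with Cd3e at 123 to 146 FPKM, a fragment level scaled to transcript length and depth, and summed to 623 and 626 FPKM in wild type against 694 and 674 in the knockout. Of these markers Cd28, Cd4, Cd3g and Cd3e rose and Cd5 fell, and Cd3e and Cd3g lost the call without knockout replicate 1 (0.054 and 0.0905), Cd3g also without wild type replicate 1 (0.0636). The 5 B cell markers summed to 4.16 and 4.21 FPKM in wild type and 3.72 and 3.42 in the knockout, the 5 myeloid markers to between 0.11 and 0.19 FPKM, the 3 dendritic markers to between 1.07 and 1.81, the 2 CD8 markers to between 6.54 and 7.46, the 4 erythroid markers to between 0.23 and 0.49 and the 4 mast cell and basophil markers to at most 0.06. Lyz2, Csf1r, Ncr1, Cpa3, Mcpt8, Fcer1a and Hbb-bs were listed in none of the libraries. Of the markers of natural killer cells, Klrb1c and Klre1 were at most at 0.11 FPKM. The part of these other cells in the results was not tested.

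Cytosolic synthetases charge the tRNAs used by ribosomes in the cytosol, and several of them are held together in the multi-synthetase complex. Mitochondrial synthetases are encoded in the nucleus, imported, and charge the tRNAs of mitochondria, which translate a small set of respiratory chain subunits. Many cytosolic synthetase genes are induced by ATF4, a transcription factor made when the kinase GCN2 senses uncharged tRNA or when other stress kinases act. ATF4 binds composite C/EBP-ATF elements. T cells raise protein synthesis after activation, and synthetase mRNAs are known to rise with it.

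Synthetase mRNAs were lower in the knockout, by small amounts, in both classes. Of 20 cytosolic mRNAs 14 fell and none rose, and of 16 mitochondrial mRNAs 6 fell and none rose, in edgeR's quasi-likelihood test with an adjusted p under 0.05. Those are 70% and 37.5% of the classes, where 13.2% of all 12677 tested genes fell, 13.6% rose and 26.8% changed either way. No member was higher at an unadjusted p under 0.05 and none rose in DESeq2 or limma-voom, while 17 cytosolic and 9 mitochondrial members were lower at that unadjusted p, as were 2389 of all 12677 tested genes, with 2395 higher. Taken as knockout over wild type, the median log2 fold change was -0.17 for the cytosolic and -0.16 for the mitochondrial class, beside -0.0024 for all tested genes. Both knockout libraries lay below both wild-type libraries for 17 cytosolic and 9 mitochondrial members, 85% and 56.2%, where 31.9% of all tested genes did so. Both lay above for 1 member, Qars, and for 31.6% of all tested genes. The cytosolic count was 9 without knockout replicate 2. The mitochondrial count was 2 without either wild-type library, 0 without knockout replicate 1, 1 without knockout replicate 2, 1 in DESeq2 and 2 when low counts were not filtered. Fewer genes changed over the whole table too, with 1707 in DESeq2 and 1928 when low counts were not filtered, against 3398 in the main fit. In bulk RNA a smaller number of cells of one kind and less RNA per cell cannot be told apart.

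**Figure D1:**
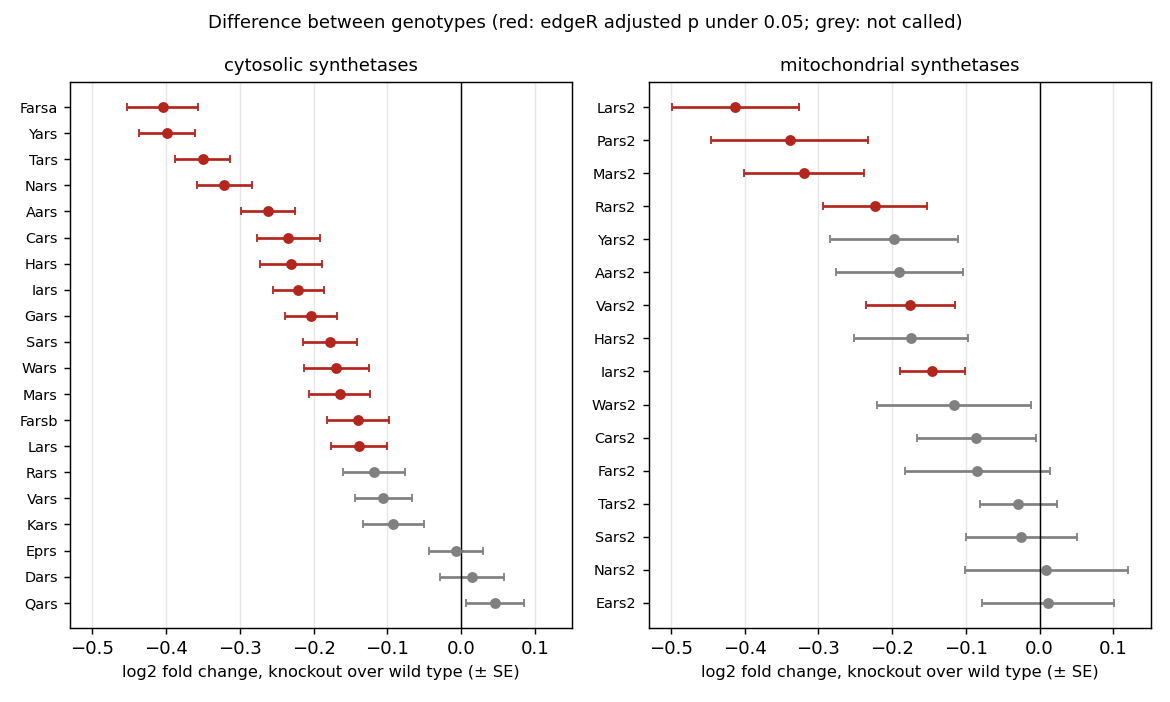
Log2 fold change, knockout over wild type, of each synthetase mRNA on the horizontal axis, with its standard error as the bar, for 20 cytosolic genes on the left and 16 mitochondrial genes on the right. Red points passed the edgeR test: 14 of 20 on the left and 6 of 16 on the right, all of them below 0.

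The promoters of 5 cytosolic genes that fell are shown because they hold a match to the ATF4 element. Cytosolic synthetases were set against mitochondrial ones as known ATF4 targets, so the element is no independent feature of the classes. RefSeq promoters of build GRCm38.p6, running from 250 bases before to 50 bases after the transcription start, were at hand for 13 cytosolic and 14 mitochondrial members. The letters TGATGNAA were searched on both strands. They occurred in 5 of 13 cytosolic promoters: in 5 of the 9 from genes that fell and in 0 of the 4 from genes not called. That split rests on few promoters and was not tested. The letters occurred in 0 of 14 mitochondrial genes, and in 2.36% of the 12809 promoters of tested genes (3.97% of all 32851 promoters). The 5 promoters are printed 5′ to 3′ on the strand of the gene, with the matches in capitals.
Aars, chr8:111033592-111033891, plus strand: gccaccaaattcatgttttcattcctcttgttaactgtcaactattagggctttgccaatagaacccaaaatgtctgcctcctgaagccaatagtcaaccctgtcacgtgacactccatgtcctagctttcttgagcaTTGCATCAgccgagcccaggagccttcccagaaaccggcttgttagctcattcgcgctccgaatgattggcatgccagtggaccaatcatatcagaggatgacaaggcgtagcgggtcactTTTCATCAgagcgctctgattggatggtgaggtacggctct
Gars, chr6:55037751-55038050, plus strand: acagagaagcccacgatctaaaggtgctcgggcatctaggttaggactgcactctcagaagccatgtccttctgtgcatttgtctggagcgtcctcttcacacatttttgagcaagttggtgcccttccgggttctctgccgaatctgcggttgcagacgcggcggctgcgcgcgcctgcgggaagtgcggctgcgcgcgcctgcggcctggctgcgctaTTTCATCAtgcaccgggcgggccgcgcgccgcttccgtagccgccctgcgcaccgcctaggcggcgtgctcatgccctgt
Iars, chr13:49681880-49682179, plus strand: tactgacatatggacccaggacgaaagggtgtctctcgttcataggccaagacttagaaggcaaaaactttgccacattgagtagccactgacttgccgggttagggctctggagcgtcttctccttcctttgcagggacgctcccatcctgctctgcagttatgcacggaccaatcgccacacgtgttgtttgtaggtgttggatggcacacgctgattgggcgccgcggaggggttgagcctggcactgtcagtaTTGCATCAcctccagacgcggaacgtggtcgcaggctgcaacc
Tars, chr15:11399609-11399908, minus strand: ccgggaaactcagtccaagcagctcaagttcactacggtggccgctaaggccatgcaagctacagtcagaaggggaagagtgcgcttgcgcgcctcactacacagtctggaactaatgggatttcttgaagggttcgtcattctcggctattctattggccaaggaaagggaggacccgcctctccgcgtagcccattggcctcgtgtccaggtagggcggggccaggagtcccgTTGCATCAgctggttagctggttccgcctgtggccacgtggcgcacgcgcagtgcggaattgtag
Yars, chr4:129189653-129189952, plus strand: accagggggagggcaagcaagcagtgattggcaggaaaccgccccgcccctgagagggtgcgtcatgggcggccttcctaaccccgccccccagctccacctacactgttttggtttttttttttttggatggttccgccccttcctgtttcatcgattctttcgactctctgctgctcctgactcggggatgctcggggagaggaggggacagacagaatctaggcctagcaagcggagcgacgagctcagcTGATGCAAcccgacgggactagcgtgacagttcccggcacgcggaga
Aars, Iars and Tars hold the element as TTGCATCA, the reverse complement, and Yars holds it as TGATGCAA on the forward strand. Gars holds TTTCATCA, and Aars has a second match of that form. The matches begin 112 bases before the start and at base 10 in Aars, at base 8 in Iars and at base 4 in Yars. They begin 30 bases before the start in Gars and 15 before it in Tars. The starts used for Aars and Yars lie inside the gene spans given below, not at their outer ends. For contrast, the promoter of Tars2, the mitochondrial counterpart of Tars, holds no such run.
Tars2, chr3:95754928-95755227, minus strand: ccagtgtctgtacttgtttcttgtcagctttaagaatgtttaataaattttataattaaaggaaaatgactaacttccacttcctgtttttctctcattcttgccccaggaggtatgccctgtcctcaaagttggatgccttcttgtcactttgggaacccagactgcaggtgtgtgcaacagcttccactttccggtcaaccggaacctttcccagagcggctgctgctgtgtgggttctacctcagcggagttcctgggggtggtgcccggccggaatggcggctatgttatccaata
A second motif, the E-box CACGTG bound by MYC and related factors, occurred in 4 of 13 cytosolic promoters. It was in 4 of the 9 from genes that fell and in 0 of the 4 from genes not called. Of the mitochondrial genes 1 of 14 held it, as did 11.8% of 10125 tested genes with a promoter. Aars, Iars and Tars hold both motifs, and Farsb holds the E-box alone. These matches describe letters in a 300-base window and no binding was measured.

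The cytosolic mRNAs were the more abundant class. Their wild-type means ran from 45.3 FPKM for Wars, the tryptophan enzyme, to 235 for Gars, the glycine enzyme, with a median of 76.7 FPKM over 20 genes. The mitochondrial mRNAs ran from 2.29 for Ears2, the glutamate enzyme, to 29.2 for Iars2, the isoleucine enzyme, with a median of 7.83. No mitochondrial mRNA reached the lowest cytosolic one in any library. Gars (235 ± 3.44 FPKM, SD, n = 2 wild type) and Nars (193 ± 4.73) stood at the top of the order. Vars, Kars, Tars and Sars followed between 119 and 125 FPKM, and the first 3 of these neighbours did not differ beyond their spread. Summed over the class, cytosolic mRNA came to 1899 and 1928 FPKM in wild type and 1682 and 1657 in the knockout, and mitochondrial mRNA to 166 and 163 against 148 and 149. Neither pair of groups overlapped, and the ratios of the means, knockout over wild type, were 0.872 and 0.902.

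**Figure D2:**
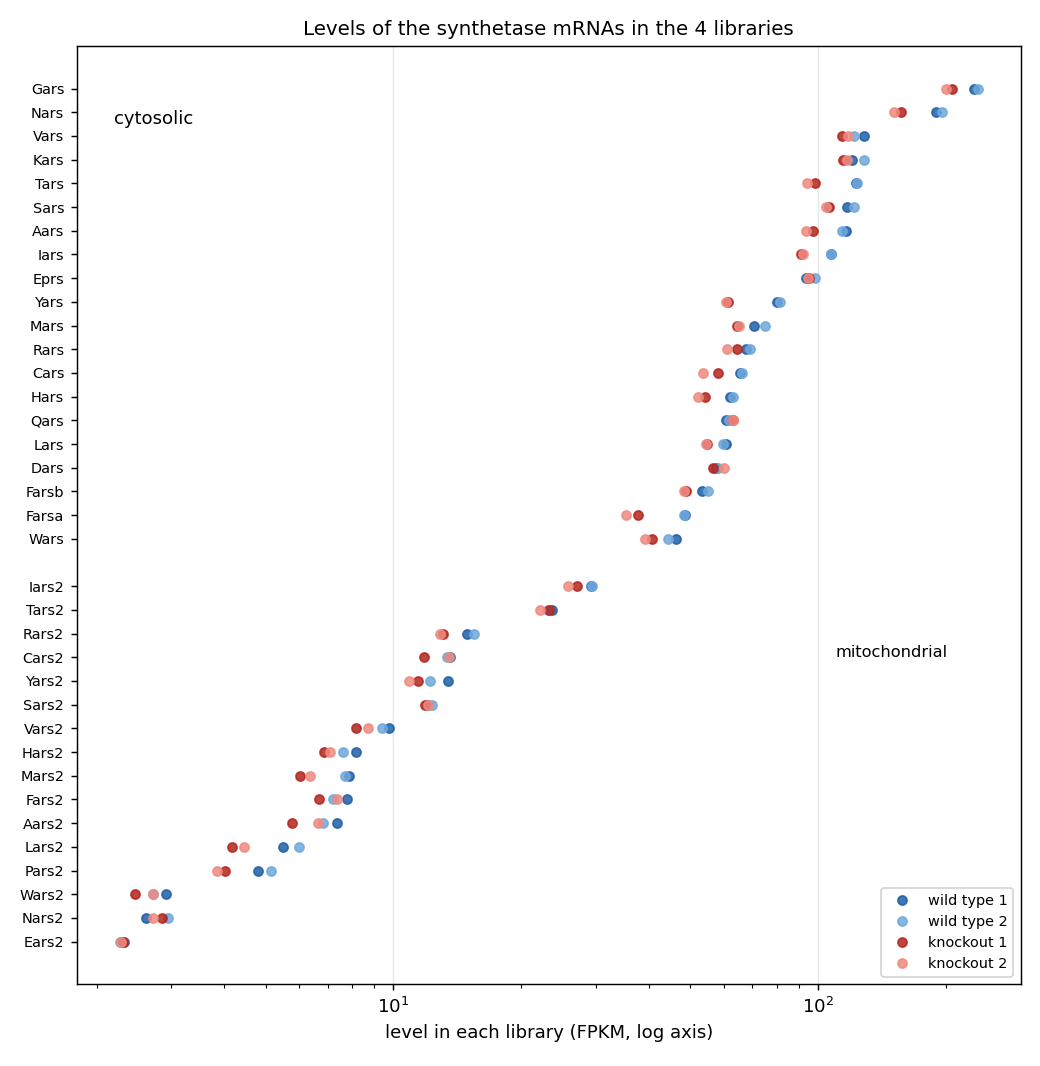
Level of each synthetase mRNA in FPKM on a log axis, 1 point per library, with cytosolic genes above and mitochondrial genes below, each ordered by wild-type mean. Cytosolic wild-type means lie between 45.3 and 235 FPKM and mitochondrial ones between 2.29 and 29.2, and in most rows the red knockout points sit left of the blue wild-type points.

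The largest cytosolic changes were in the enzymes for phenylalanine, tyrosine, threonine and asparagine. Farsa, the alpha subunit of the phenylalanine enzyme (chromosome 8, 84856969 to 84869257, GRCm38), had 89.3 and 89.0 CPM in wild type against 69.6 and 65.1 in the knockout. That is a log2 fold change of -0.40 ± 0.05 (SE, from 2 libraries a genotype), with an edgeR adjusted p of 2.36e-05. Yars, the tyrosine enzyme (chromosome 4, 129189734 to 129219240), had 230.5 and 234 CPM in wild type against 177 and 175 in the knockout. The 2 libraries of each genotype lay close together and the groups did not overlap, and the log2 fold change of -0.40 ± 0.04 had an edgeR adjusted p of 2.31e-06. Tars, the threonine enzyme (chromosome 15, 11383663 to 11399658), had 324 and 326 CPM in wild type against 261 and 249.5 in the knockout, a fall by 0.35 ± 0.04 in log2 (edgeR adjusted p = 8.97e-06). Nars, the asparagine enzyme, went from 505 and 523 to 419 and 404 CPM and fell by 0.32 ± 0.04 (edgeR adjusted p = 1.80e-05). In these 4 genes both knockout libraries were well under the lower wild-type library, and the calls held in every alternative that was run.

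The enzymes for alanine, cysteine, histidine, isoleucine and glycine fell by an intermediate amount, and their calls also held in every alternative. Aars, the alanine enzyme (chromosome 8, 111027778 to 111055569), had 435 and 426 CPM in wild type against 365 and 354 in the knockout, with a difference of -0.26 ± 0.04 in log2 (edgeR adjusted p = 9.74e-05). It shares 13.8% of its 31-base sequences with Exosc6, a neighbouring gene of the RNA exosome that also fell, from 30.9 to 24.5 CPM, so reads from the shared stretch cannot be told apart. Cars, the cysteine enzyme, went from 199 and 202 to 177 and 164 CPM, and Hars, the histidine enzyme, from 123 and 126 to 108 and 104 CPM. Their log2 fold changes were -0.23 and -0.23. Iars went from 474 and 474 to 405 and 409 CPM, with a log2 fold change of -0.22 ± 0.03, and 14.5% of its 31-base sequences also occur in Gm4849, which no library lists. Gars, the most abundant synthetase mRNA, had 556 and 568 CPM in wild type against 495 and 481 in the knockout and fell by 0.20 ± 0.04 in log2 (edgeR adjusted p = 0.00062). The groups of all 5 genes were apart.

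Smaller falls were seen for serine, tryptophan, methionine, leucine and the beta subunit of the phenylalanine enzyme. Sars, the serine enzyme, went from 429 and 445 to 388 and 385 CPM (log2 -0.18, edgeR adjusted p = 0.00214, 0.0511 without knockout replicate 2). Wars went from 131 and 125 to 116 and 111 CPM (log2 -0.17, edgeR adjusted p = 0.0102) and did not pass when wild type replicate 1 (0.12) or knockout replicate 2 (0.137) was left out. Mars, the methionine enzyme, which also serves initiation, went from 209 and 223 to 191 and 194 CPM (log2 -0.16, edgeR adjusted p = 0.00855). That call was lost when wild type replicate 2 was left out (0.126) and when either knockout library was (0.106 and 0.0833). Lars, the leucine enzyme, which also senses leucine for the kinase mTORC1, went from 235 and 231 to 212 and 211 CPM (log2 -0.14, edgeR adjusted p = 0.0127), and passed only without wild type replicate 2 (0.0462) among the 4 fits with 1 library left out, where the others gave 0.0755 to 0.0962. Farsb went from 116 and 121 to 108 and 107 CPM (log2 -0.14 ± 0.04, edgeR adjusted p = 0.0229) and passed in none of those 4 fits (0.0517 to 0.179). Wars and Farsb did not pass in DESeq2 (0.0594 and 0.144), nor Mars, Wars and Farsb without the filter on low counts (0.0612 to 0.0675). Farsb shares 8.13% of its 31-base sequences with Sgpp2, which had a mean of 2.0 CPM in wild type. Farsb had a smaller fold change than Farsa although the enzyme holds both subunits, and the difference between the subunits was not tested.

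The other 6 cytosolic mRNAs did not pass the test. Qars, the glutamine enzyme, had 152 and 155 CPM in wild type against 158 and 159 in the knockout, so that both knockout libraries were slightly the higher ones (log2 0.05 ± 0.04, approximate 95% interval -0.03 to 0.12; edgeR adjusted p = 0.42). Dars, the aspartate enzyme, had 129 and 131 CPM in wild type against 127 and 135 in the knockout (log2 0.01, interval -0.07 to 0.10), and its groups overlapped. Eprs, which joins the glutamate and proline enzymes in 1 chain, had 458 and 479.8 CPM in wild type against 468 and 466 in the knockout (log2 -0.01 ± 0.04, interval -0.08 to 0.07). For these 3 genes the intervals leave out a fall as large as that of Yars. Rars, the arginine enzyme, went from 144 and 147 to 138 and 131 CPM (log2 -0.12, edgeR adjusted p = 0.0506), Vars, the valine enzyme, from 546 and 516 to 485 and 502 CPM (log2 -0.11, edgeR adjusted p = 0.0551) and Kars, the lysine enzyme, from 247 and 265 to 237 and 243 CPM (log2 -0.09, edgeR adjusted p = 0.119). Their knockout libraries were below their wild-type libraries without reaching the threshold, and Vars passed without wild type replicate 2 (0.0444). In limma-voom Rars and Vars passed, with adjusted p of 0.0498 and 0.0469.

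Sorted by known roles, 5 of the 6 cytosolic enzymes that did not pass belong to the multi-synthetase complex. Of the 8 enzymes of the complex (Dars, Eprs, Iars, Kars, Lars, Mars, Qars and Rars) 3 fell, with a median log2 fold change of -0.10. Of the 12 cytosolic mRNAs outside it 11 fell, all but Vars, with a median of -0.23. The list of 13 synthetases usually named as ATF4-induced had 11 that fell, with a median of -0.20, and the 7 other cytosolic mRNAs had 3, with a median of -0.12. The groupings overlap, and 3 of the 4 complex members on the ATF4 list fell and 0 of the 4 complex members off it did, while outside the complex 8 of 9 on the list and 3 of 3 off it (Farsa, Farsb and Hars) fell. By fold of the catalytic domain, 6 of 10 class I and 8 of 10 class II cytosolic mRNAs fell. Of the mitochondrial ones 5 of 9 class I and 1 of 7 class II fell. Eprs, which joins an enzyme of each class, was counted in class I. Of all 12677 tested genes 13.2% fell, a share that the 1 of 7 is near. These differences between groups of genes are counts and were not tested.

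**Figure D3:**
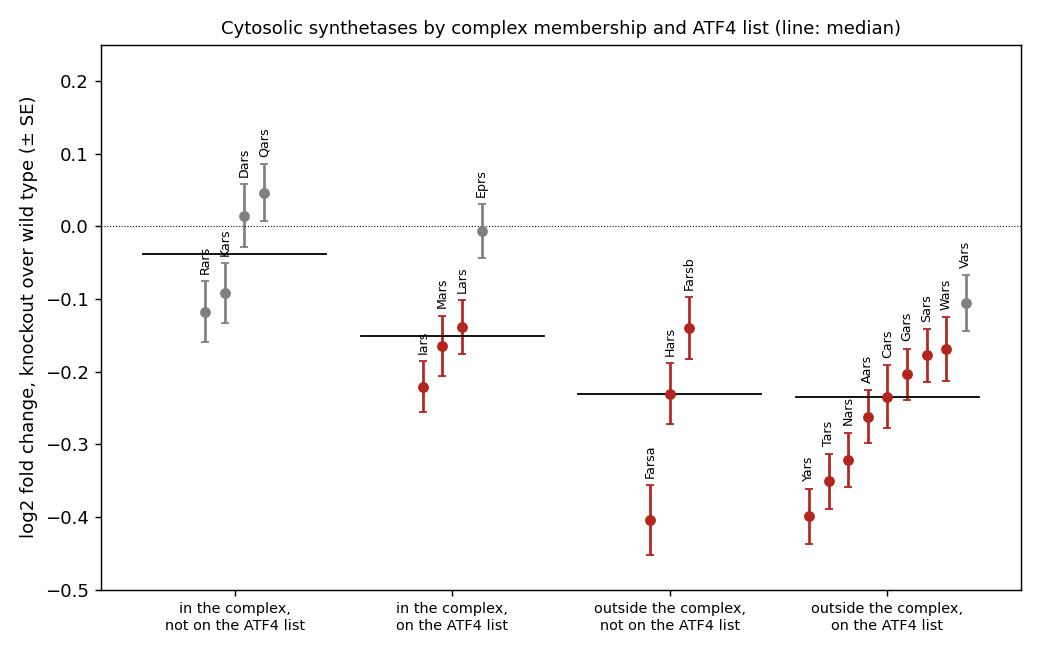
Log2 fold change, knockout over wild type, of 20 cytosolic synthetase mRNAs (bars: standard error; black line: group median), split by membership of the multi-synthetase complex and of the list of ATF4-induced synthetases. Red points passed the edgeR test: from left to right 0 of 4, 3 of 4, 3 of 3 and 8 of 9.

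The scaffold proteins of the complex did not pass the test. Aimp1 had 50.5 and 53.5 CPM in wild type against 51.2 and 53.3 in the knockout (log2 0.01 ± 0.05), and Aimp2 had 71.3 and 75.1 against 74.2 and 76.3 CPM (log2 0.04 ± 0.05), with overlapping groups for both. Eef1e1, the third scaffold protein, had 55.7 and 56.0 CPM in wild type against 52.3 and 48.1 in the knockout (log2 -0.15 ± 0.06, edgeR adjusted p = 0.0516).

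Among the mitochondrial synthetases the leucine enzyme changed most. Lars2 (chromosome 9, 123366927 to 123462675) had 21.5 and 23.4 CPM in wild type against 16.3 and 17.5 in the knockout. It fell by 0.41 ± 0.09 in log2 (edgeR adjusted p = 0.00246), with groups apart, and of all alternatives only the one without knockout replicate 1 ended the call (0.0641). Mars2, the methionine enzyme (chromosome 1, 55237177 to 55240058), had 22.7 and 22.3 CPM in wild type against 17.5 and 18.5 in the knockout (log2 -0.32 ± 0.08, edgeR adjusted p = 0.00879), and did not pass when knockout replicate 1 (0.0977) or 2 (0.0582) was left out or in DESeq2 (0.0963). Pars2, the proline enzyme, went from 11.6 and 12.2 to 9.74 and 9.11 CPM (log2 -0.34 ± 0.11, edgeR adjusted p = 0.0286), Rars2, the arginine enzyme, from 28.0 and 29.0 to 24.6 and 24.2 CPM (log2 -0.22 ± 0.07, 0.03), Vars2, the valine enzyme, from 43.6 and 42.1 to 36.6 and 39.2 CPM (log2 -0.18 ± 0.06, 0.0435) and Iars2 from 104 and 104 to 96.4 and 91.9 CPM (log2 -0.15 ± 0.04, 0.0225). These last 4 passed in no fit with 1 library left out, where the adjusted p lay between 0.0513 for Iars2 without knockout replicate 1 and 0.247 for Vars2 without knockout replicate 1, and in neither DESeq2 (0.152 to 0.271) nor the fit with no filter on low counts (0.0673 to 0.112). Iars2 and Vars2 did not pass in limma on log2(FPKM + 0.1) either (0.0595 and 0.11), nor Vars2 with upper-quartile factors (0.0613). Iars2 shares 22.4% of its 31-base sequences with its neighbour Rab3gap2, which had a mean of 95.4 CPM in wild type and 98.0 in the knockout, so its value is uncertain.

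The other 10 mitochondrial mRNAs did not pass. Yars2, Aars2 and Hars2 had fold changes of the size seen among called cytosolic genes, with both knockout libraries below both wild-type libraries. Yars2, the tyrosine enzyme, went from 21.1 and 19.2 to 18.0 and 17.2 CPM (log2 -0.20 ± 0.09), Aars2, the alanine enzyme, from 24.9 and 23.1 to 19.6 and 22.5 CPM (log2 -0.19 ± 0.09) and Hars2, the histidine enzyme, from 25.3 and 23.8 to 21.3 and 22.3 CPM (log2 -0.17 ± 0.08), with edgeR adjusted p of 0.107, 0.119 and 0.11. Hars and Hars2 lie side by side, and 6.68% of the 31-base sequences of Hars also occur in Hars2, so neither value can be fully separated from the other. Wars2, Cars2 and Fars2, for tryptophan, cysteine and phenylalanine, had log2 fold changes of -0.12, -0.09 and -0.08 with overlapping groups. Fars2 shares 8.13% of its 31-base sequences with Nrn1, which rose from a mean of 80.5 to 99.7 CPM. Tars2, the threonine enzyme, had 59.8 and 58.6 CPM in wild type against 59.9 and 56.1 in the knockout (log2 -0.03 ± 0.05, approximate 95% interval -0.13 to 0.07), and Sars2, the serine enzyme, had 23.0 and 23.4 CPM in wild type against 22.6 and 23.1 in the knockout (log2 -0.02 ± 0.07, interval -0.17 to 0.12). Nars2, the asparagine enzyme, and Ears2 had 0.01 and 0.01, with overlapping groups.

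The mitochondrial mRNAs were measured with less precision. Their expected counts ran from 173 to 2061 per library against 1236 to 11220 for the cytosolic class, and the standard errors of the log2 fold changes from 0.04 to 0.11 against 0.03 to 0.05. The part of this depth in the smaller number of mitochondrial calls was not tested.

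For 13 amino acids a cytosolic and a mitochondrial enzyme are both members, so the compartments can be set side by side within a library. The cytosolic member had the lower log2 fold change in 9 pairs and the mitochondrial one in 4, and in 3 pairs (Iars, Lars and Mars with their partners) both fell. The difference between the 2 log2 fold changes was within 1.96 standard errors of 0 in 9 of 13 pairs, taking the errors of both genes as independent. For threonine it was -0.32 ± 0.06 (cytosolic minus mitochondrial, SE), and the Tars to Tars2 ratio of FPKM values was 5.2 and 5.36 in wild type against 4.23 and 4.25 in the knockout. For asparagine it was -0.33 ± 0.12, with a ratio of 72.6 and 66.5 in wild type against 54.8 and 55.6 in the knockout, and for tyrosine -0.20 ± 0.09, with 5.95 and 6.65 in wild type against 5.36 and 5.55 in the knockout. In these 3 pairs the ratio was lower in both knockout libraries. Leucine went the other way, with a difference of 0.27 ± 0.09 and a Lars to Lars2 ratio of 11.05 and 9.97 in wild type against 13.1 and 12.2 in the knockout. Over all pairs the ratio was lower in both knockout libraries in 5, higher in both in 4 and overlapping in 4.

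**Figure D4:**
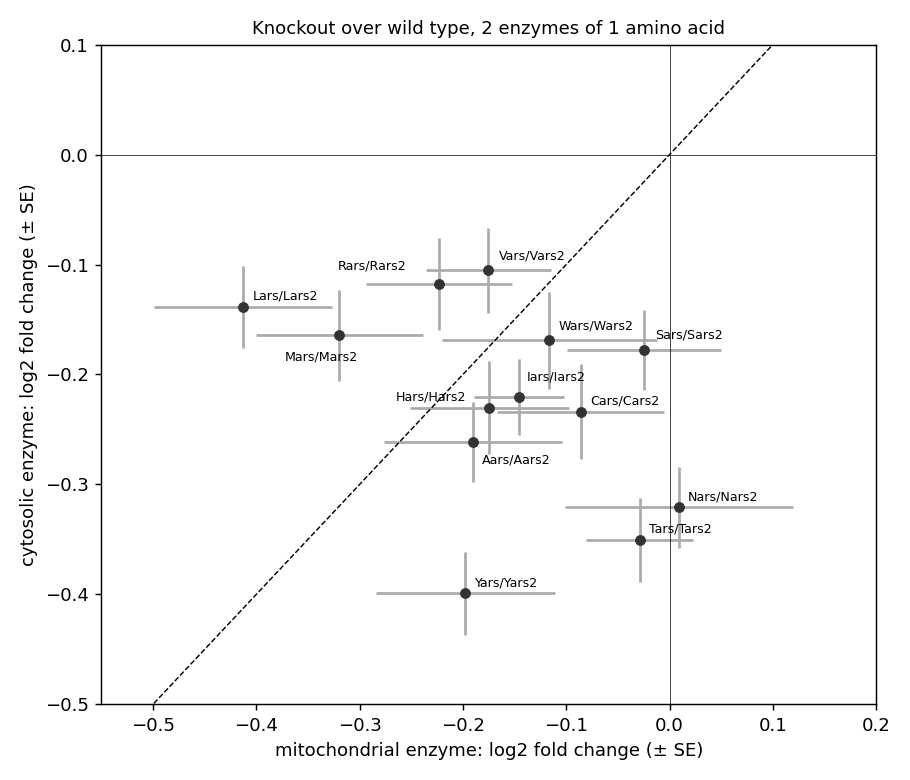
Log2 fold change, knockout over wild type, of the cytosolic (vertical) against the mitochondrial (horizontal) enzyme of the same amino acid in 13 pairs, with standard errors, and a dashed line of equal change. Tars, Nars and Yars lie below the line with differences of -0.32, -0.33 and -0.20, and Lars lies above it with 0.27.

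Of 14 genes that act beside the synthetases in tRNA charging 2 fell and none rose, with a median log2 fold change of -0.06. That share is near the 13.2% of all tested genes that fell, so the count is no result about these genes. Aarsd1, a protein that edits wrongly charged alanine tRNA, went from 30.99 and 32.1 to 25.4 and 27.1 CPM (log2 -0.27 ± 0.07, edgeR adjusted p = 0.0109), and Elac2, which trims the 3′ ends of tRNA precursors, from 76.1 and 80.4 to 70.9 and 70.4 CPM (log2 -0.15 ± 0.05, edgeR adjusted p = 0.0328). Both passed only without wild type replicate 1 among the 4 fits with 1 library left out, where the other adjusted p were 0.0542 to 0.114 and 0.129 to 0.262. Dtd2, which removes D-amino acids from tRNA, had 10.6 and 9.06 CPM in wild type against 8.5 and 6.63 in the knockout (log2 -0.38 ± 0.14, edgeR adjusted p = 0.0525). Qrsl1, Gatb and Gatc, which together make glutaminyl-tRNA in mitochondria in place of a glutamine enzyme, had -0.27, -0.03 and -0.16 and did not pass.

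Of 13 factors of mitochondrial translation and transcription 3 fell and none rose, with a median of -0.09, where 13.2% of all tested genes fell. Tsfm, the exchange factor of mitochondrial elongation, went from 18.7 and 20.9 to 16.3 and 15.3 CPM (log2 -0.32 ± 0.09, edgeR adjusted p = 0.0148). Tufm, the elongation factor it serves, went from 139.6 and 141 to 126 and 130.1 CPM (log2 -0.13 ± 0.04), and Polrmt, the mitochondrial RNA polymerase, from 41.5 and 40.1 to 35.7 and 34.6 CPM (log2 -0.21 ± 0.06). Tsfm passed only without wild type replicate 1 (0.0146), Polrmt only without wild type replicate 2 (0.0436) and Tufm in none of the fits with 1 library left out (0.0772 to 0.157). Mtrf1l, a release factor, had -0.20 ± 0.10 (edgeR adjusted p = 0.155). Tfam, which packages mitochondrial DNA, had a log2 fold change of -0.05 ± 0.07 and did not pass.

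Of 14 genes of the ATF4 axis 6 fell and 1 rose, with a median of -0.09, where 13.2% of all tested genes fell and 13.6% rose. Atf4 itself had 643 and 635 CPM in wild type against 551 and 506 in the knockout, or -0.28 ± 0.04 in log2 (edgeR adjusted p = 0.000168), with groups apart. ATF4 is controlled largely at translation, and the protein was not measured. Among its known targets Trib3, a pseudokinase, fell by 0.40 ± 0.06, Asns, asparagine synthetase, by 0.24 ± 0.04 and Sesn2, a leucine sensor of the mTORC1 pathway, by 0.29 ± 0.05 on the log2 scale, and these 3 and Atf4 passed whichever library was left out. Atf5 and Cebpb, both of the ATF and C/EBP families, fell by 0.31 and 0.25 but not without wild type replicate 1 (edgeR adjusted p = 0.248 and 0.0872) or knockout replicate 2 (0.368 and 0.153). Ddit3, another target, had -0.07 ± 0.09 (edgeR adjusted p = 0.604) with overlapping groups. The member that rose was Ppp1r15a, the phosphatase subunit that reverses eIF2 phosphorylation (log2 0.18 ± 0.06, edgeR adjusted p = 0.0494), which passed only without knockout replicate 2 (0.0485) among the fits with 1 library left out. The 4 kinases that phosphorylate eIF2 did not pass, with log2 fold changes of -0.04 (Eif2ak1), 0.13 (Eif2ak2), 0.07 (Eif2ak3) and 0.06 (Eif2ak4, which encodes GCN2). Myc, which drives translation genes in activated T cells, had 547 and 539 CPM in wild type against 528 and 523 in the knockout (log2 -0.05 ± 0.03, edgeR adjusted p = 0.338).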

How the data were processed

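RNA sequencing of 4 libraries was used, 2 wild type and 2 knockout, grouped by the titles in the labels. Bowtie and RSEM and the builds GRCm38 and mm10 are named in the submitters' processing notes; the sources used here give no versions, strand setting or annotation. Per the file headers, the deposited tables list genes with expected counts, FPKM values and lengths. The deposited expected counts are RSEM estimates, and the authors scaled the FPKM values to transcript length and depth. A gene missing from a table was set to 0 there.

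Expected counts were rounded and tested with edgeR 4.0.16 (R 4.3.3): quasi-likelihood test, two-sided, TMM, genotype as the only factor, filterByExpr (minimum count 10, minimum total 15), Benjamini-Hochberg adjustment over all 12677 tested genes at 0.05. Standard errors are the absolute log2 fold change divided by the square root of F, and intervals are 1.96 standard errors either side. CPM values use TMM-scaled library sizes. Alternatives were RLE and upper-quartile factors, 2 other filters, DESeq2 1.42.0, limma-voom and limma on log2(FPKM + 0.1) and log2(FPKM + 1) (limma 3.58.1), 1 library left out, and a replicate block. The scripts were tested on simulated data. The libraries were not duplicates (chi-square over degrees of freedom 2.21 and 2.55 within genotypes). With 3 counts taken as the floor, the limit is 0.152 to 0.157 CPM, for counting error only.

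The members and the gene lists were chosen with earlier results of these data known. Named genes are all members, the complex scaffold, the most abundant markers of other cells, Bfar, Il9, Atf4 and Myc, and up to 4 genes per list by adjusted p; Ddit3, Tfam, Gatb, Gatc, the eIF2 kinases, Ppp1r15a, Atf5, Cebpb, Exosc6, Rab3gap2, Sgpp2, Nrn1 and Gm4849 were added after their values were seen. Some genes of these lists are not reported here. Coordinates are RefSeq GRCm38.p6 spans, matched by gene identifier for all 36 members. Shared 31-base sequences were counted on both strands in GENCODE M21 transcripts, so they include overlapping antisense genes.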

Additional observations from a re-analysis of the deposited data

How the results depend on the processing

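All 14 cytosolic and 6 mitochondrial falls kept their direction in every alternative run, and no member rose in any. The number of cytosolic mRNAs that fell was 11 to 17 in the alternatives that kept all 4 libraries, and 9 to 13 with 1 library left out. Of the 14, 9 passed in all 13 alternatives (Aars, Cars, Gars, Hars, Iars, Nars, Tars, Yars and Farsa), and none of the 6 mitochondrial mRNAs did. The number of mitochondrial mRNAs that fell was 2 with no filter on low counts, 1 in DESeq2 and 0 to 2 with 1 library left out. The median log2 fold change ran from -0.21 to -0.17 (cytosolic) and from -0.19 to -0.11 (mitochondrial) with 1 library left out. Over all genes 3398 changed, against 1928 with no filter, 1707 in DESeq2 and 1441 (without knockout replicate 2) to 2355 (without wild type replicate 2) with 1 library left out. With no filter more genes are tested, and with 1 library left out a group rests on a single library that is assumed to vary like the other group; the cause of the lower counts in DESeq2 was not tested.

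Signs turned only in members that did not pass. With 1 library left out, the log2 fold change ran from -0.029 to 0.059 for Dars, from -0.040 to 0.027 for Eprs, from -0.19 to 0.010 for Cars2, from -0.0011 to 0.023 for Ears2, from -0.077 to 0.10 for Nars2 and from -0.075 to 0.017 for Tars2. Eprs was 0.0052 with upper-quartile factors. Same-numbered libraries had a correlation of 0.006 in their deviations from the group means. This value, from 2 libraries a genotype, cannot show whether the replicate numbers pair the samples. With the number as a replicate block 3952 genes changed, 17 cytosolic mRNAs fell, with Kars, Rars and Vars added, and 6 mitochondrial mRNAs fell. Expected counts per library ran from 173 to 2061 for the mitochondrial and from 1236 to 11220 for the cytosolic members, and the part of depth in which falls were called was not tested.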
